A study of Mus musculus with 32 samples.

Results

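Nsdhl, Ebp and Mbtps2 are 3 X-linked mouse genes of sterol synthesis and its regulation, taken by name from the deposited tables of X-linked genes. They are 3 of 1006 genes listed, and all 3 were listed in each of the 4 tables and passed the filter on low values there (Xa plus Xi FPKM of 1 or more on average over a table). The series measured RNA from 32 samples of mouse XEN cells (extraembryonic endoderm stem cells). Their strains are given as 129S1/SvImj X JF1/Ms, so that reads from the active X (Xa) and the inactive X (Xi) can be told apart. The groups were XistpA (4 samples), XRR KO (2 clones, 1 sample each), XRRa KO (3) and WT (3), in 1 table. XRRb XiKO, XRRb XaKO, XRRc XiKO and XRRc XaKO (2 samples each) stood in another. Rad21-degron cells with dTAG or DMSO (4 samples each, from 2 clones) and Ctcf-degron cells with dTAG or DMSO for 48 h (2 samples each) had a table each. The labels do not say what was changed in the XistpA and XRR lines, nor from how many clones the groups other than XRR KO and Rad21-degron came. dTAG makes the cell degrade a protein that carries the matching tag, and DMSO is the solvent. Rad21 is a cohesin subunit and Ctcf a DNA-binding factor of chromosome architecture. Both are autosomal and were not analysed here, so how far they were depleted is not shown.

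For every group the authors' table holds 1 value for each gene on each X, merged over the group's samples. No difference below therefore has a replicate check, and no SD or test is given. The unit is FPKM (fragments scaled by transcript length and by the mapped total). Levels of different genes may not be comparable, because no source used here says how reads were assigned to an allele. The sequencing depth is unknown, and the Xi share is 100 times Xi over Xa plus Xi FPKM. "Rose" and "fell" mean a change of 1 or more on the log2(FPKM + 0.5) scale, which understates changes of low genes, and a share is called higher or lower from 10 percentage points on. FPKM was compared within a table, and only the Xi share across tables. Xist, the RNA of the inactive X, stood between 0 and 0.0765 FPKM on Xa in all 12 groups. On Xi it was listed at 0 in XistpA, stood at 1.18 FPKM in XRR KO, and ranged from 6.72 to 35.6 FPKM in the other 10. Of the X-linked cell markers, Gpc3 and Cited1 (extraembryonic endoderm) were expressed in all 12 groups, at 8.54 to 37.3 and 13.1 to 242 FPKM. The embryonic stem cell markers Nr0b1 and Dusp9 stayed at or below 0.00875 FPKM in all of them. The trophoblast gene Plac1 was also listed above 0 in all 12 groups, at 0.306 to 3.84 FPKM. Esx1, another trophoblast gene, was listed at 0 in 8 groups and reached at most 2.92 FPKM. The autosomal XEN markers (Gata4, Gata6 and others) and the X-linked Rhox5 were not analysed here.

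Cholesterol is built in the endoplasmic reticulum by a chain of enzymes whose genes are switched on by membrane-bound transcription factors, the sterol regulatory element binding proteins. Nsdhl encodes a dehydrogenase that takes part in removing methyl groups from the sterol ring, and Ebp encodes the isomerase that shifts a double bond of the ring at a later step. Mbtps2 encodes the site-2 protease, a membrane metalloprotease that makes the final cut that frees these transcription factors from the membrane. Variants in all 3 genes cause X-linked skin disorders in humans, in which the pattern of X inactivation shapes the lesions in heterozygous females. The visceral endoderm, a tissue of the extraembryonic endoderm, takes up lipids and passes them on to the embryo.

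The promoters of the 3 genes, 250 bases before to 50 after the start site, are shown because the genes differed in how much RNA came from Xi. They come from RefSeq, build GRCm38.p6, which is not the mm9 build named in the submitters' processing notes. Capitals mark CCAAT boxes, read as CCAAT on the printed strand or ATTGG where the box lies on the other one, and each line gives the strand of the gene.
Nsdhl (chrX:72918271-72918570, plus strand): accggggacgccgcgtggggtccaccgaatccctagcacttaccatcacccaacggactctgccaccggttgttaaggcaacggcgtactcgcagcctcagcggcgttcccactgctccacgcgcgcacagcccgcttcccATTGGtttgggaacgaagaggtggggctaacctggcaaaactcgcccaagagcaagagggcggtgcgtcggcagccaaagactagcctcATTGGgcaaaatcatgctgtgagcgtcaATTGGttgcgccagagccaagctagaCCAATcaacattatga
Ebp (chrX:8193463-8193762, minus strand): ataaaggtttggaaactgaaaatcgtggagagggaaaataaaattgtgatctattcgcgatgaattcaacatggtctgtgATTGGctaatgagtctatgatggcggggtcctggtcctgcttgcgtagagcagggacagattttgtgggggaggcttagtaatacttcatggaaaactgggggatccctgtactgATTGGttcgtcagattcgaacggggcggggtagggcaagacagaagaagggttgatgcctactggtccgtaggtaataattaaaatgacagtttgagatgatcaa
Mbtps2 (chrX:157598666-157598965, minus strand): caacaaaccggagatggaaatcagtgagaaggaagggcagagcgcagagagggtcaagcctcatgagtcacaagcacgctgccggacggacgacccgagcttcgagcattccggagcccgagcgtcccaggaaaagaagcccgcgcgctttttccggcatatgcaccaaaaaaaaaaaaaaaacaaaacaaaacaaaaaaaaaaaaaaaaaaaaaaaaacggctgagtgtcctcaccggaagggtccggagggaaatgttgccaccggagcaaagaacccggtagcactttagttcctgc

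The Nsdhl promoter held 4 CCAAT boxes, whose first bases lay at -109, -20, 9 and 35 counted from the start site as 1. The Ebp promoter held 2, at -170 and -55, and the Mbtps2 promoter held none. Of 32851 promoter windows of the same length, 37.4% held at least 1 CCAAT box and 3.37% held 3 or more. The GC box GGGCGG was found once in Nsdhl (-52) and once in Ebp (-33), and in 35.7% of all windows. The ETS motif CCGGAAG was found once in Mbtps2 (-15) and in 8.86% of windows. The sterol regulatory element TCACNCCAC, the YY1 motif AAGATGGCG and the CTCF core (CCA, any pair of bases, AG, any base, GGC) were matched in none of the 3 windows, on either strand. They were matched in 1.24%, 1.40% and 1.69% of all windows. No matches of different motifs overlapped in the 3 windows. CpG dinucleotides numbered 23 in Nsdhl, 10 in Ebp and 20 in Mbtps2, against a median of 7 over all windows. Among X-linked genes tested in the WT table with a single promoter entry, the median was 19 for 23 genes with an Xi share of 10% or more in WT, and 18 for 160 genes below it. The neighbouring gene Cetn2 starts on the opposite strand, 146 bases from the Nsdhl start in GENCODE M21. The Nsdhl window thus also covers sequence before Cetn2. Whether any motif bears on the Xi share was not tested.

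By Xi share the 3 genes stood in the same order in all 12 groups, with Mbtps2 highest, Nsdhl between and Ebp at or near 0. By listed Xa level the order was the reverse in every group, with Ebp highest and Mbtps2 lowest. In WT cells the Xi level was 2.03 FPKM for Mbtps2, 2.42 FPKM for Nsdhl and listed at 0 for Ebp, while the Xa levels were 3.98, 22.5 and 62.0 FPKM. The listed Xi level in WT was thus slightly higher for Nsdhl than for Mbtps2, and the high Mbtps2 share went with a low listed Xa level. Levels of different genes may not be comparable, as said above. The median Xi share over all tested genes was at most 0.0795% in any group, and 11.5% to 21.5% of tested genes had a share of 10% or more.

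**Figure D1:**
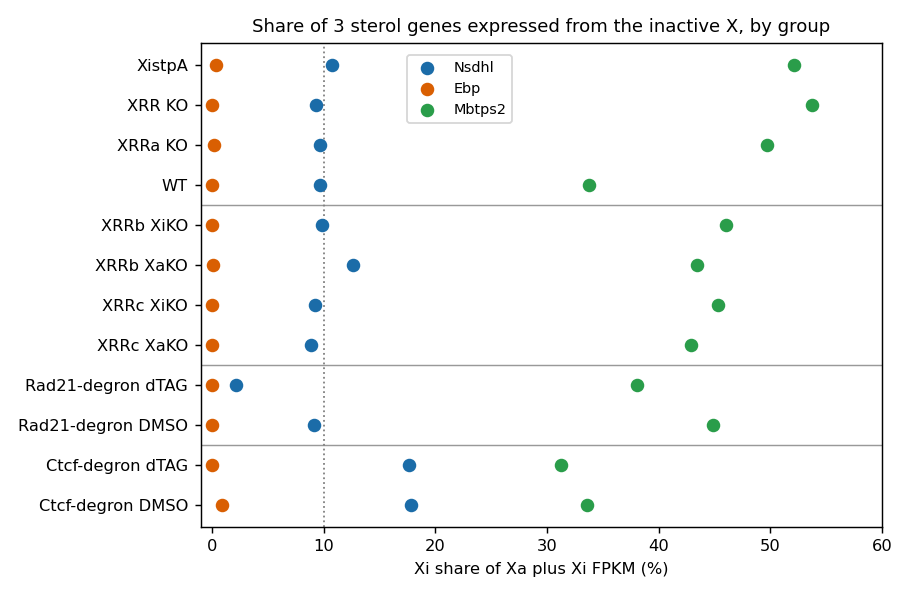
Xi share of Nsdhl, Ebp and Mbtps2 (percent of Xa plus Xi FPKM, horizontal axis) in the 12 groups, 1 point for each merged group value. Grey lines part the 4 tables and the dotted line marks 10%. Mbtps2 lies between 31.3% and 53.7%, Nsdhl between 2.13% and 17.9%, and Ebp at or below 0.910%.

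Mbtps2, the protease gene, had an Xi share of 10% or more in all 12 groups, with a lowest value of 31.3% in Ctcf-degron dTAG, a median of 44.2% and a highest value of 53.7% in XRR KO. In 2 groups, XistpA and XRR KO, the Xi level exceeded the Xa level. It ranked between 4th and 25th by Xi share among the tested genes of its table. The 5 groups against which others were set did not sit at 1 level. The Mbtps2 share was 33.8% in WT and 33.6% in Ctcf-degron DMSO, but 43.4% in XRRb XaKO, 42.9% in XRRc XaKO and 44.9% in Rad21-degron DMSO. None of these 5 reached the shares of XistpA (52.1%), XRR KO (53.7%) or XRRa KO (49.7%). Whether neighbours in this order differ beyond the spread between samples was not testable with merged values.

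Nsdhl, the dehydrogenase gene, kept a low but nonzero Xi level in all 12 groups. Its Xi share reached 10% in 4 groups, namely XistpA (10.8%), XRRb XaKO (12.6%), Ctcf-degron dTAG (17.6%) and Ctcf-degron DMSO (17.9%). In 7 further groups it lay between 8.89% and 9.84%. The remaining group, Rad21-degron dTAG, stood apart at 2.13%. In the WT table the Nsdhl share spanned only 9.35% to 10.8%, although its Xi level spanned 1.17 to 2.42 FPKM.

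Ebp, the isomerase gene, was listed at 0 on Xi in 8 of 12 groups. The 4 others had 0.211 FPKM (XistpA), 0.141 FPKM (XRRa KO), 0.0619 FPKM (XRRb XaKO) and 0.285 FPKM (Ctcf-degron DMSO). Its largest Xi share was 0.910%. On Xa it had the highest listed level of the 3 genes in every group, from 10.5 to 65.3 FPKM. A listed 0 can be a failed estimate, and whether it is one here was not tested.

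**Figure D2:**
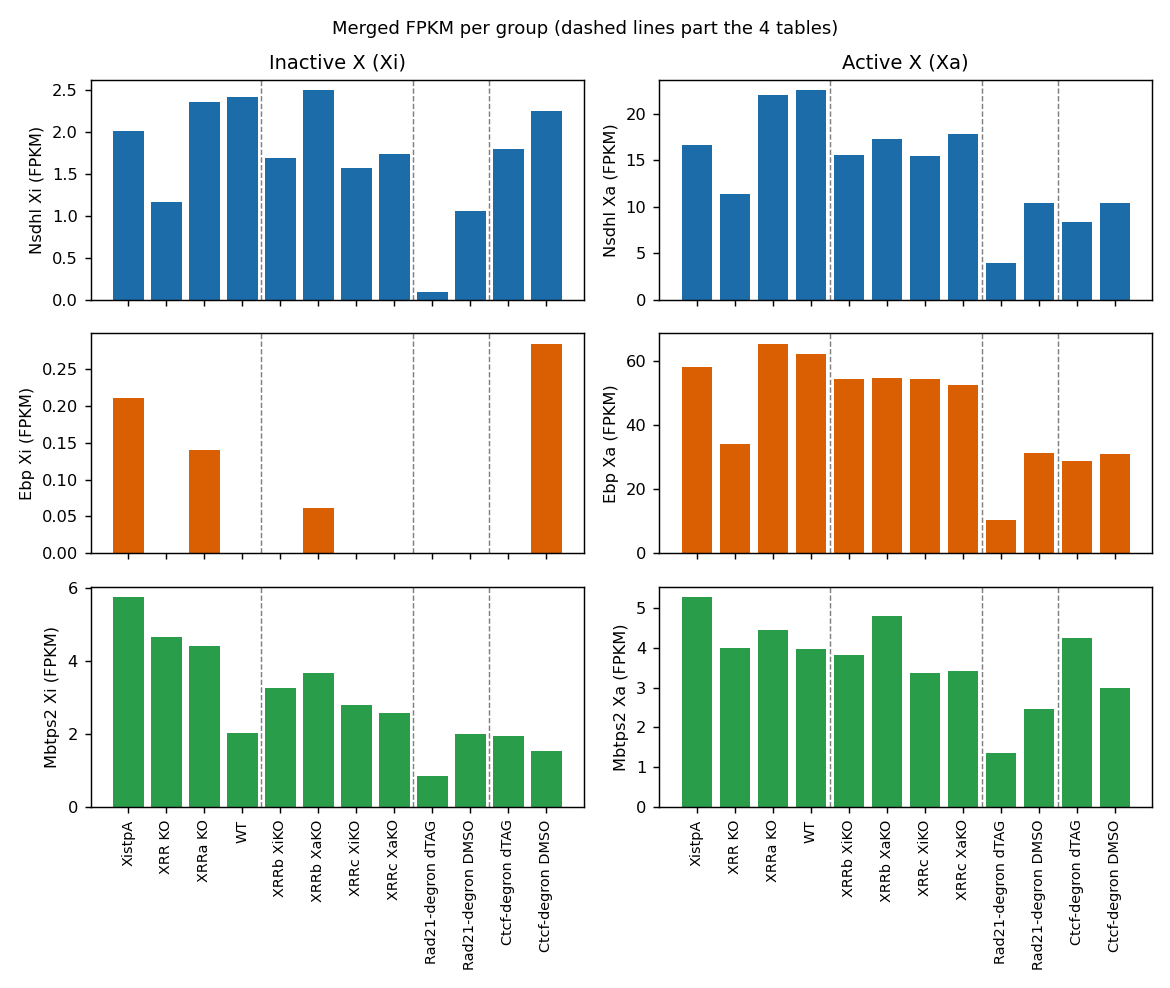
Merged FPKM of Nsdhl, Ebp and Mbtps2 on the inactive X (left) and the active X (right), 1 bar for each group, with a vertical scale of its own in each panel. Dashed lines part the tables, between which FPKM is not compared. Ebp reaches 65.3 FPKM on Xa and at most 0.285 FPKM on Xi, and in every Xa plot the Rad21-degron dTAG bar lies below its DMSO bar.

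In XistpA, XRR KO and XRRa KO, the listed Xi level of Mbtps2 was higher than in WT. These 3 comparisons share the WT column, so they are not independent of each other. Reads in the exon of Yy2, a gene within the Mbtps2 locus described below, cannot be told apart from those of some Mbtps2 transcripts. Yy2 also rose on Xi in the 3 groups (1.11, 1.19 and 1.01), and its part in the Mbtps2 values was not tested. On Xi, Mbtps2 had 5.74 FPKM in XistpA, 4.65 FPKM in XRR KO and 4.40 FPKM in XRRa KO, against 2.03 FPKM in WT. On Xa it had 5.27 FPKM in XistpA, 4.01 FPKM in XRR KO and 4.45 FPKM in XRRa KO, against 3.98 FPKM in WT. The level on Xi was thus 2.82, 2.29 and 2.16 times that of WT in XistpA, XRR KO and XRRa KO, while on Xa it was 1.32, 1.01 and 1.12 times.

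By the size rule, Mbtps2 rose on Xi in XistpA (log2 change 1.30) and in XRR KO (1.02), and its change in XRRa KO was 0.95, just under the rule. Of all tested genes, 12.2% rose on Xi in XistpA, 15.9% in XRR KO and 5.93% in XRRa KO. The Mbtps2 rise ranked 29th and 42nd of 270 in XistpA and XRR KO, so many X-linked genes rose more in these 2 groups. In XRRa KO its change ranked 17th of 270, behind the 16 genes that rose there. With a pseudocount of 1 the XRR KO change was 0.90 and no longer past the rule, and with 0.1 the XRRa KO change was 1.08 and past it. The Xi share of Mbtps2 was higher by 18.3, 19.9 and 15.9 points in XistpA, XRR KO and XRRa KO. These differences ranked 23rd of 269, 25th of 268 and 8th of 270 from the highest. Shares were higher by 10 points or more for 15.6%, 18.3% and 7.04% of genes. The share in Rad21-degron DMSO, of another table, lay closer to the 3 groups (44.9%) than that of WT did (33.8%).

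Nsdhl and Ebp did not follow Mbtps2 in these groups. Nsdhl had 2.02 FPKM on Xi in XistpA, 1.17 FPKM in XRR KO and 2.36 FPKM in XRRa KO, against 2.42 FPKM in WT. Its log2 changes on Xi were -0.21, -0.80 and -0.03, and of all tested genes 1.48%, 1.11% and 1.11% fell on Xi in these groups. The Nsdhl changes on Xi ranked 11th, 4th and 30th from the lowest of 270. Only 90 of 270 genes had both alleles detected in WT, and a gene listed at 0 on Xi there cannot fall. Xi was listed at 0 both in WT and in XistpA, XRR KO or XRRa KO for 117, 108 and 137 genes. The Ebp Xi values of 0.211, 0 and 0.141 FPKM, against a listed 0 in WT, are too low for a fold.

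On Xa, both synthesis genes had their lowest level of the WT table in XRR KO. Nsdhl had 11.4 FPKM on Xa in XRR KO, against 22.5 FPKM in WT (-0.96), and 16.7 and 22.0 FPKM in XistpA and XRRa KO. Ebp had 34.1 FPKM in XRR KO, against 62.0 FPKM in WT (-0.85), and 57.9 and 65.3 FPKM in XistpA and XRRa KO. Neither change passed the size rule, and nor did any member's Xa change in XistpA or XRRa KO. On Xa, 1.11% of genes rose and 3.33% fell in XistpA, 1.11% rose and 3.7% fell in XRR KO, and 0.37% rose and 0.37% fell in XRRa KO. The Nsdhl and Ebp changes in XRR KO ranked 12th and 23rd from the lowest of 270. The median Xa change in XRR KO was -0.19, and relative to it the changes were -0.77 for Nsdhl and -0.67 for Ebp. Over all genes 3 rose and 10 fell on Xa in XRR KO, while relative to the median change 7 rose and 4 fell, and once median Xa levels were made equal 6 rose and 7 fell. Nsdhl was lower on both alleles alike, at 0.504 of WT on Xa and 0.485 of WT on Xi, and its Xi share hardly moved (9.35% in XRR KO against 9.68% in WT). In bulk RNA, fewer cells expressing a gene and less RNA per cell cannot be told apart.

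**Figure D3:**
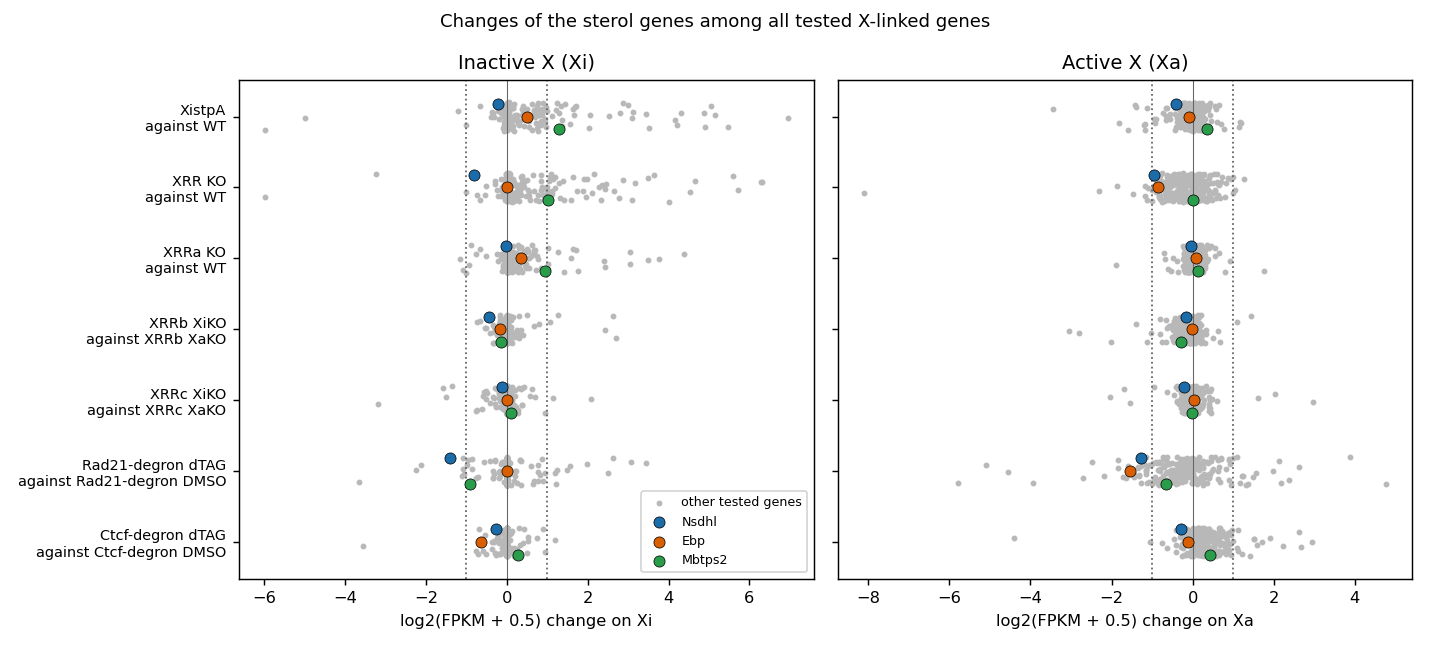
Change on the log2(FPKM + 0.5) scale of each tested X-linked gene (grey points) and of Nsdhl, Ebp and Mbtps2 (coloured points) in 7 comparisons, on the inactive X (left) and the active X (right). Vertical scatter within a row has no meaning, and dotted lines mark the size rule of 1. Mbtps2 is past the rule on Xi in XistpA (1.30) and XRR KO (1.02), and Nsdhl and Ebp are past it on Xa with Rad21 dTAG (-1.28 and -1.53).

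Between XiKO and XaKO no member passed the size rule on either allele in the XRRb or the XRRc line. In XRRb, 1.92% of genes rose and 0% fell on Xi, and 0.766% rose and 2.3% fell on Xa. In XRRc, 0.766% rose and 1.53% fell on Xi, and 1.15% of genes rose and 1.15% fell on Xa. Xi was listed at 0 in both XiKO and XaKO for 147 of 261 genes in XRRb and 149 in XRRc. Nsdhl had 1.70 FPKM on Xi in XRRb XiKO, against 2.50 FPKM in XRRb XaKO (-0.45), and 1.57 FPKM in XRRc XiKO, against 1.74 FPKM in XRRc XaKO (-0.11). Mbtps2 had 3.25 FPKM on Xi in XRRb XiKO, against 3.67 FPKM in XRRb XaKO, and 2.80 FPKM in XRRc XiKO, against 2.56 FPKM in XRRc XaKO. Its Xi share differed, XiKO minus XaKO, by 2.61 points in XRRb and by 2.39 points in XRRc, both within the share rule. XRRb XaKO and XRRc XaKO, set against each other, differed on Xi by 0.45 for Mbtps2 and 0.42 for Nsdhl. Between them 0.383% of genes rose and 1.15% fell on Xi, and 1.15% rose and 0.766% fell on Xa. For Mbtps2 that is more than XiKO differed from XaKO (-0.15 in XRRb and 0.11 in XRRc), and for Nsdhl it is close in size to the XRRb difference. Ebp on Xa stayed between 52.5 and 54.5 FPKM in the 4 groups.

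With Rad21 dTAG the levels of all 3 genes were lower than with DMSO, on each allele on which the gene was detected. Ebp had 10.5 FPKM on Xa with dTAG, against 31.4 FPKM with DMSO, and fell by 1.53 on the log2 scale. Nsdhl had 4.0 FPKM on Xa with dTAG, against 10.4 FPKM with DMSO, and fell by 1.28. Mbtps2 had 1.36 FPKM on Xa with dTAG, against 2.45 FPKM with DMSO, a change of -0.67 that did not pass the rule. On Xa 15% of tested genes fell and 6.48% rose, so falls were common, and Ebp and Nsdhl ranked 14th and 24th from the lowest of 247.

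The median Xa change over all genes with dTAG was -0.26, with 164 of 247 genes lower and 82 higher. Relative to the median the changes were -1.27 for Ebp, -1.02 for Nsdhl and -0.41 for Mbtps2. When the columns were scaled to equal median Xa FPKM, Ebp changed by -1.13 and Nsdhl by -0.91, which no longer passes the rule. The balance of all Xa calls depends on this choice, with 16 rises and 37 falls as deposited, 27 and 19 at equal medians, and 22 and 26 relative to the median change.

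On Xi, Nsdhl had 0.0871 FPKM with dTAG, against 1.06 FPKM with DMSO, and fell by 1.41, the 4th lowest of 247 changes. Of all tested genes 3.24% fell and 4.05% rose on Xi, which is 8 falls and 10 rises as deposited, 6 and 17 at equal median Xa FPKM, and 4 and 17 relative to the median Xa change. Relative to that median the Nsdhl change on Xi was -1.15. With a pseudocount of 1 the Nsdhl change was -0.92. Its Xi share was 2.13% with dTAG, against 9.17% with DMSO, a difference of -7.05 points. A share of 9.17% cannot become lower by 10 points, so the share rule could not be met here. Mbtps2 had 0.838 FPKM on Xi with dTAG, against 2.00 FPKM with DMSO (-0.90), and a share of 38.1% against 44.9%. Over all genes, 20 had a lower share and 46 a higher one. A gene listed at 0 on Xi with DMSO cannot have a lower share or fall on Xi. Only 48 of 247 genes had both alleles detected with DMSO, and 179 were at 0 on Xi under both treatments. By 10 points or more, 2.51% of shares were lower and 7.53% higher. Only 33 genes had a share of 10% or more with DMSO. The shares in this table are coarse. Within a relative tolerance of 1e-05, the Xi to Xa ratio equalled a ratio of whole numbers up to 100 for 79.6% of genes with both alleles detected with dTAG, and for 77.1% with DMSO, against 15.6% in WT. For Nsdhl the ratio was 1 to 46 with dTAG and 10 to 99 with DMSO, and for Mbtps2 it was 8 to 13 and 22 to 27. The numbers of reads behind these ratios are not given in the files. The part of this coarseness in the lower shares was not tested.

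With Ctcf dTAG no member passed the size rule on either allele. Only 0.361% of genes rose and 0.361% fell on Xi, while 5.42% rose and 0.722% fell on Xa. On Xi that is 1 rise and 1 fall, and relative to the median Xa change 0 and 1. Xi was listed at 0 with both dTAG and DMSO for 198 of 277 genes. Nsdhl had 1.80 FPKM on Xi with dTAG, against 2.25 FPKM with DMSO (-0.26), and 8.40 FPKM on Xa, against 10.4 FPKM (-0.29). Ebp had 28.6 FPKM on Xa with dTAG, against 31.0 FPKM with DMSO (-0.11). Mbtps2 had 4.24 FPKM on Xa with dTAG, against 2.99 FPKM with DMSO (0.44), and 1.93 FPKM on Xi, against 1.52 FPKM (0.27). The median Xa change was 0.23. Relative to it Nsdhl lay at -0.52 and Ebp at -0.35 on Xa, and Mbtps2 at 0.21. The Nsdhl change ranked 12th from the lowest of 277. Nsdhl kept its highest Xi shares in this table under both treatments, 17.6% with dTAG and 17.9% with DMSO. The Mbtps2 share was 31.3% with dTAG and 33.6% with DMSO. Whether Rad21 and Ctcf dTAG differed in their effect on these genes was not tested.

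Each member had neighbours of another Xi pattern. In the gene order of RefSeq, the 3 tested genes on each side of Nsdhl (Cd99l2, Vma21, Cetn2, Zfp185, Xlr4a and Xlr3a) never reached a share of 10%. Xlr4a and Xlr3a belong to families of similar copies, so their values are uncertain. The closest is the centrosome gene Cetn2, which lies head to head with Nsdhl, its start 146 bases away in GENCODE M21. Cetn2 was listed at 0 on Xi in 10 of 12 groups, where Nsdhl was not. It had 4.08 FPKM on Xi in XRRc XaKO (9.03%) and 1.13 FPKM in XistpA (4.47%). In XRRc XiKO it was listed at 0 on Xi, with 41.1 FPKM on Xa in both XRRc groups. A listed 0 can be a failed estimate, and whether it is one for Cetn2 was not tested. On Xa, Cetn2 reached 46.9 FPKM in WT.

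Around Ebp a gene with a high Xi share lay close by. Wdr13, Rbm3, Tbc1d25 and Porcn had shares of at most 3.02% in all 12 groups, as Ebp did. Ftsj1, an RNA methyltransferase gene just beyond Porcn, had shares from 19.2% to 43.1% in all 12. Slc38a5, an amino acid transporter gene next to Ftsj1, had 51.0% in XistpA and 43.9% in XRR KO, with a listed 0 on Xi in 9 groups. Ebp thus stood 2 tested genes away from a gene expressed on Xi in every group.

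Mbtps2 shared its locus with Yy2, a gene for a zinc finger transcription factor that arose by retrotransposition. In GENCODE M21 the single exon of Yy2 lies on the same strand, wholly inside the last exon of some Mbtps2 transcripts, so reads there cannot be told apart between the 2 genes. Apart from Yy2, no transcript of another gene matched a protein-coding transcript of a member at 95% identity over 50% of its length. The Yy2 share was 10% or more in all 12 groups and lay below the Mbtps2 share in 11 of 12. It was 46.9% in XistpA, 52.3% in XRR KO and 40.4% in XRRa KO, against 30.1% in WT. Yy2 rose on Xi in all 3 (1.11, 1.19 and 1.01). With Rad21 dTAG the Yy2 share was 46.2%, against 23.5% with DMSO. Its Xi level was 0.996 FPKM with dTAG, against 0.810 FPKM with DMSO (0.19), while its Xa change was -0.91. The Mbtps2 share differed by -6.80 points there, within the share rule, and shares in the Rad21 table are coarse. Gm6568, a processed pseudogene on the opposite strand within the Mbtps2 gene, was listed above 0 on Xi in 11 groups (0.194 to 2.61 FPKM). The libraries keep no strand, so where it overlaps Mbtps2 transcripts a read may be of either gene, although it lies beyond the last exon of the protein-coding ones. The other neighbours, Acot9, Sms, Smpx and Rps6ka3, had shares of at most 9.16%.

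**Figure D4:**
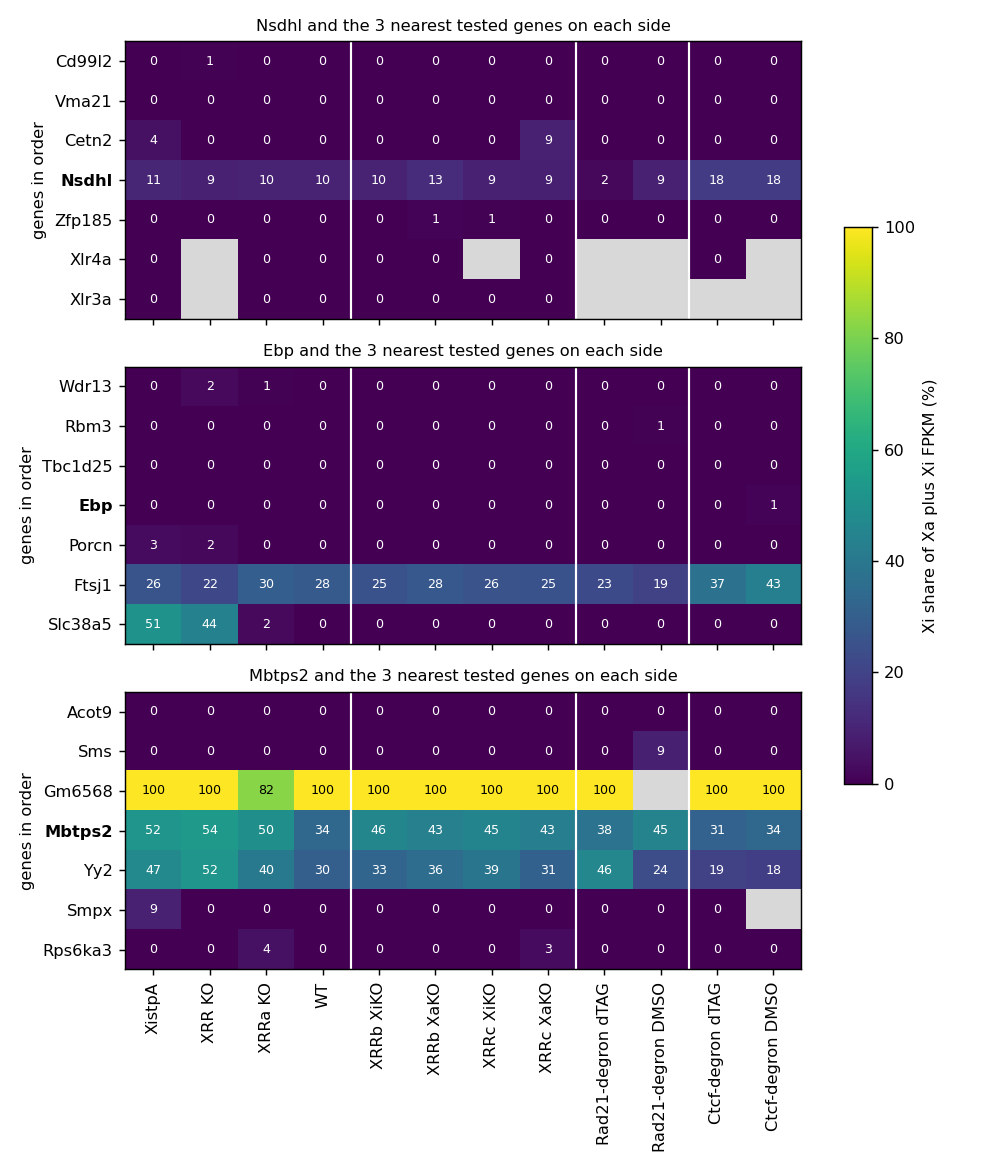
Xi share (percent of Xa plus Xi FPKM, rounded to whole numbers in the cells) of Nsdhl, Ebp and Mbtps2 (bold) and the 3 nearest tested genes on each side, in RefSeq gene order, in the 12 groups. White lines part the tables and grey cells have both alleles listed at 0. Among the genes around Nsdhl none passes 10%, Ebp lies near Ftsj1 (19.2% to 43.1%), and Mbtps2 and Yy2 are at 10% or more in all 12 groups.

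Among 232 other genes tested in all 4 tables, those most like Mbtps2 in Xi share were Mmgt1, Eif2s3x and Cenpi. Likeness was the mean absolute difference in share over the 12 groups, 3.34 points for Mmgt1, a membrane insertion and magnesium transport gene, 4.07 points for the translation initiation factor gene Eif2s3x and 4.10 points for the centromere gene Cenpi. Their median shares were 43.2%, 43.8% and 42.8%, against 44.2% for Mbtps2. Yy2 ranked 13th, with 9.63 points. Nsdhl and Ebp were not ranked, because they had shares of 10% or more in fewer than 6 groups.

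Counted as ever reaching an Xi share of 10%, other X-linked genes of lipid metabolism were close to X-linked genes in general. Of a list of 20, between 18 and 19 were listed and 10 or 11 passed the filter in a table. Of the 12 tested in any table, 9 never had an Xi share of 10%, among them Hsd17b10, a mitochondrial dehydrogenase gene, and Acsl4, which activates long-chain fatty acids. Of all 304 genes tested in any table, 227 (74.7%) never did. In WT, though, none of the 11 tested list genes reached 10%, beside 12.2% of all tested genes. Stard8 reached it in 2 groups and Zdhhc9 in 1. Piga, which starts the synthesis of GPI anchors, was tested in the Ctcf table only and had shares of 32.4% with dTAG and 26.7% with DMSO. Stard8, with a lipid-binding START domain, rose on Xi to 9.51 FPKM in XistpA, 7.65 FPKM in XRR KO and 0.525 FPKM in XRRa KO, against 0.00601 FPKM in WT. Zdhhc9, a palmitoyltransferase gene, rose on Xi to 1.44 FPKM in XRR KO, against a listed 0 in WT. These are 1, 2 and 1 rises of 11 tested on Xi in XistpA, XRR KO and XRRa KO, and none fell there. Over all genes 12.2%, 15.9% and 5.93% rose in these groups, so the list's counts lie near the background.

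On Xa few genes of the list passed the size rule. With Rad21 dTAG 1 of 10 fell, Acsl4 with 1.51 FPKM with dTAG, against 5.59 FPKM with DMSO (-1.60), and none rose, beside 15% that fell and 6.48% that rose over all genes. The list median was -0.26, the same as over all tested genes to 2 decimals. In XRR KO 1 of 11 fell, the lysosomal galactosidase gene Gla (-1.11), beside 3.7% over all genes. The 10 others lay between -0.90 (Acot9) and 0.87 (Zdhhc9). The list median was 0.003 against -0.19 over all genes. With Ctcf dTAG 1 of 11 fell, the phosphoinositide phosphatase gene Ocrl (-1.06), beside 0.722% over all genes, and the median was 0.15 against 0.23. On Xa no gene of the list rose or fell in the 4 other comparisons.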

How the data were processed

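Polyadenylated RNA of XEN cells was sequenced from Smart-seq2 libraries, per the labels' protocols. StringTie 2.1.1, HISAT2 2.2.0, Trim Galore 0.6.4 and build mm9 stand in the submitters' processing notes. No source used here says how reads were assigned to an allele. The authors deposited FPKM values for Xa and Xi in 4 tables with 24 columns, each merged over a group's samples, so limma, planned for columns per sample, was not run. The Ctcf columns name only the treatment and were matched by elimination.

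Changes were differences of log2(FPKM + 0.5) over genes with a mean Xa plus Xi FPKM of 1 or more (270, 261, 247 and 277 genes). The depth is unknown, so no interval is given. Named genes were the 3 members, the 3 genes most like a member with a share of 10% or more in at least 6 groups, the 3 tested neighbours on each side, lipid genes past the size rule, and Xist. Hsd17b10, Piga and Acsl4's Xi share were picked out after their values were seen. Members and lists were chosen with earlier results of these data known. Gk was matched as Gyk. Gene order and promoters came from RefSeq (GRCm38.p6), overlaps from GENCODE M21, and copies from minimap2 2.31. The calls were checked on simulated data. Alternatives were pseudocounts of 0.1 and 1, no filter, a filter of 5 FPKM, 2 scalings and share rules of 5% and 20%. The software was Python 3.11.15 with matplotlib 3.10.9, pandas 2.3.3 and numpy 2.4.6.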

Additional observations from a re-analysis of the deposited data

How the results depend on the processing

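Of the recomputed member changes, 160 stayed on their side of the size rule, 8 crossed it and no called change reversed. With a pseudocount of 0.1, Ebp on Xi passed it in XistpA (1.64), XRRa KO (1.27) and Ctcf dTAG (-1.94), all from values listed at 0 in 1 group, as did Mbtps2 on Xi in XRRa KO (1.08) and with Rad21 dTAG (-1.16). With a pseudocount of 1, Mbtps2 on Xi in XRR KO (0.90) and Nsdhl on Xi with Rad21 dTAG (-0.92) no longer passed it, nor did Nsdhl on Xa with Rad21 dTAG at equal median Xa FPKM (-0.91). These follow from the size of the pseudocount or the scaling itself. Nsdhl met a share rule of 5% in 11 groups and one of 20% in 0. Mbtps2 met both in 12 groups and Ebp in none.

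Counts over all genes moved by more than 1.5 times as follows. Without a filter, Xa rises numbered 5 (3 with it) in XRR KO, 4 (1) in XRRa KO and 4 (2) in XRRb, Xa falls 2 (1) in XRRa KO, 9 (3) in XRRc and 4 (2) with Ctcf dTAG, and Xi rises 2 (1) with Ctcf dTAG. With a filter of 5 FPKM, Xa rises numbered 1 (3) in XistpA, XRR KO and XRRc, 0 (1) in XRRa KO, 7 (16) with Rad21 dTAG and 5 (15) with Ctcf dTAG. Xa falls then numbered 1 (9) in XistpA, 0 (1) in XRRa KO, 0 (6) in XRRb and 1 (2) with Ctcf dTAG, and Xi rises 1 (2) in XRRc. Scaling, added after the data were seen, changed Xi calls with Rad21 dTAG from 10 rises and 8 falls to 17 and 6 at equal medians, and to 17 and 4 relative to the median Xa change. Xa calls changed from 3 rises and 10 falls to 6 and 7 and to 7 and 4 in XRR KO, and from 16 and 37 to 27 and 19 and to 22 and 26 with Rad21 dTAG, under the same 2 scalings. With Ctcf dTAG the 1 Xi rise was lost relative to the median change (0), and Xa rises numbered 10 (15) under both.

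No paired analysis was possible because each column merges a group's samples and carries no replicate number. For the same reason no replicate was left out.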

Other observations

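Gm6568, a processed pseudogene that overlaps Mbtps2 on the opposite strand in GENCODE M21, was listed almost wholly on Xi. Its Xa value was 0 in 11 of 12 groups and 0.367 FPKM in XRRa KO. On Xi it had 1.52 FPKM in XistpA, 1.32 FPKM in XRR KO and 1.71 FPKM in XRRa KO, against 1.40 FPKM in WT. It stood at 2.61 FPKM with Rad21 dTAG, against a listed 0 with DMSO. The libraries keep no strand, and Gm6568 lies beyond the last exon of the protein-coding Mbtps2 transcripts. Near-identical copies of Gm6568 were not searched for, and whether its reads were misplaced was not tested.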
